A study of Rattus norvegicus with 44 samples.

Results

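Connective tissue growth factor (CTGF, gene symbol Ccn2) was the single factor tested in a set of 6 arrays of its own, 3 of ovaries cultured with CTGF and 3 of their controls, out of 44 arrays in the series. The samples were chosen by their labels: the CTGF arrays and the controls without the ending that marks the other set, joined in 3 pairs by replicate number. In the CTGF group, whole ovaries of 4-day-old female Sprague-Dawley rats were cultured for 48 h with human CTGF at 50 ng/ml, and the medium was changed every 24 h. In the control group, ovaries of the same age and strain were cultured for the same time with no growth factor. Each sample pooled 2 to 3 ovaries from 1 well, which came from different pups of the same litter, so a pool of ovaries counts as 1 sample. The agent was a human protein given to rat tissue at 1 dose and 1 time, and RNA of the whole organ was measured, in which fewer cells of a type and less RNA per cell cannot be told apart. All 27342 probe sets of the Affymetrix Rat Gene array were compared, on the log2 scale of the deposited values.

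At this age the rat ovary holds mostly primordial follicles, each an arrested oocyte wrapped in flattened pregranulosa cells. The step to the primary follicle, in which the pregranulosa cells become cuboidal and the oocyte begins to grow, is set by growth factors passed between oocyte, granulosa cells and the surrounding stroma. CTGF is a secreted protein of the CCN family that sits in the extracellular matrix, is known for matrix production and fibrosis in other tissues, and acts through integrins, proteoglycans, LDL receptor relatives such as Lrp1 and by binding other growth factors. It has no dedicated receptor kinase of its own.

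The arrays carried the markers of the ovary. The oocyte growth factor Gdf9 stood at 11.09, 11.19 and 11.17 in the CTGF ovaries and at 10.88, 11.15 and 11.07 in the controls, against a median of 6.33 over all probe sets. The median level of an array was between 6.29 and 6.35. Arrays of the same replicate number resembled each other closely (r = 0.997, 0.997 and 0.998 over all probe sets). Those of numbers 2 and 3 were nearly as alike across numbers, with a highest r of 0.997 for their CTGF arrays and 0.996 for their controls. The pair with number 1 stood apart from the other 4 arrays (r between 0.986 and 0.989). Between number 1 and the other numbers, whatever the treatment, 513 probe sets differed by more than 1 on the log2 scale, and 61 did between numbers 2 and 3. Between CTGF and control only 1 probe set had a mean difference of that size, that of Pi15. The bone morphogenetic protein Bmp3 shows the contrast: it stood at 9.44, 5.87 and 6.38 in the CTGF ovaries and at 9.83, 6.14 and 6.80 in the controls, so the arrays of number 1 lay 3.34 above the others while every CTGF sample was slightly below its own control. The comparison was made within the pairs, and the counts of the fit that ignores them are given beside it.

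Not 1 of the 27342 probe sets reached an adjusted p of 0.05 (0, or 0%, limma with the replicate number as a block). The smallest adjusted p was 0.317. At an unadjusted p of 0.05, 2802 probe sets (10.2%) differed with the pairs in the fit, and 854 (3.12%) without them. The study's own thresholds are laxer and were applied here to limma's paired p in place of its t-test: the unadjusted p is 0.05 or less, the group means on the linear scale differ by 10 units or more, and the CTGF mean is 1.2 times the control mean or more, or 0.83 times it or less. By these, 266 probe sets (0.973%) were higher and 280 (1.02%) were lower with CTGF. The fit without pairs listed 87 higher (0.318%) and 121 lower (0.443%), all of them among the first lists. The methods name a t-test and do not give its form. With an unpaired t-test on log2 values the same thresholds listed 44 higher (0.161%) and 61 lower (0.223%). With a paired t-test by replicate number they listed 80 and 71. Below, the criteria are those of the paired fit unless another is named. The same sign in all 3 pairs was seen for 241 of the 266 and 245 of the 280, a share that the criteria favour, beside 16.4% and 14% of all probe sets that were up or down in every pair. In 78 of the higher and 115 of the lower probe sets the CTGF and control arrays did not overlap, beside 997 (3.65%) and 1240 (4.54%) of all probe sets that lay wholly above or below the controls, and the criteria favour this too. The differences were small, with a median of 0.31 for the higher and -0.32 for the lower probe sets and a median standard error of 0.07 over all probe sets.

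**Figure D1:**
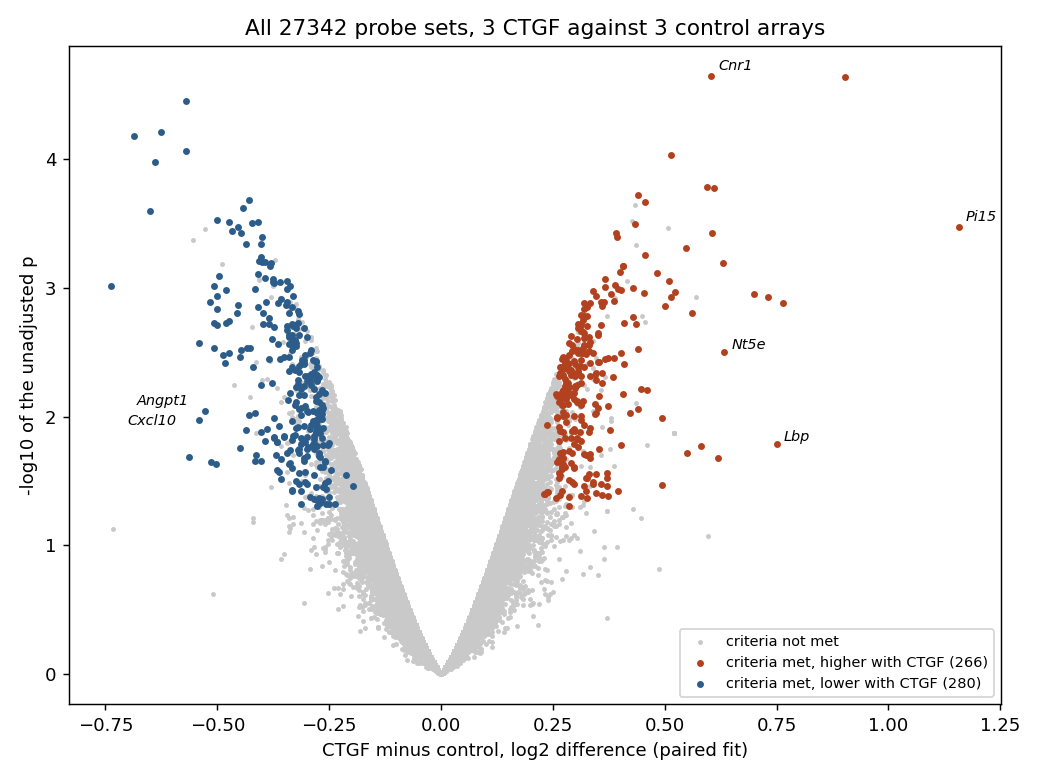
Each point is 1 of the 27342 probe sets, with the log2 difference of CTGF minus control on the x axis and -log10 of limma's unadjusted p on the y axis; coloured points met the study criteria (266 higher, 280 lower). Pi15 lies alone beyond a difference of 1, and Cnr1 has the smallest p among the probe sets with a symbol.

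The lists depended on the pairs they were drawn from. With the arrays of number 1 left out, 276 probe sets were higher and 152 lower, and 125 and 92 of these were in the main lists. Without number 2 the counts were 368 and 215, and without number 3 they were 386 and 573. A core of 68 higher and 61 lower probe sets met the criteria whichever pair was left out, among them those of Pi15, Nt5e, Cnr1, C1qa, C1qc, Star, Mt2A, Pappa, Dppa3, Bmp3 and Pclaf. Centring the arrays on their medians, which moved the median of all differences from 0.0034 to -0.0101, shifted the split to 214 higher and 331 lower.

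Pi15, which encodes a secreted peptidase inhibitor of the CRISP family, had the largest difference of all probe sets. Its level was 10.50, 9.85 and 9.65 in the CTGF ovaries and 8.74, 8.67 and 9.12 in the controls. All CTGF arrays lay above all controls, by 1.16 ± 0.19 on average (SE of the paired fit, unadjusted p = 0.000337, adjusted p = 0.344, limma), a linear ratio of 2.28. With 3 arrays against 3, an exact two-sided permutation test of a single gene cannot go below p = 0.1. That is what groups that do not overlap give when the pairs are ignored. Within the 3 pairs, an exact two-sided test on the signs cannot go below p = 0.25. The pairs with numbers 1, 2 and 3 differed by 1.76, 1.18 and 0.53. Pi15 met the criteria in the fit without pairs and with the unpaired t-test on log2 values. It did not meet them in the paired t-test by replicate number, which takes the spread from these pair differences alone.

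Nt5e, the surface enzyme CD73 that makes adenosine from AMP, had nearly the same level in every CTGF sample, with 8.19, 8.21 and 8.16, and 7.02, 7.82 and 7.82 in the controls. Its groups did not overlap, and the difference was 0.63 ± 0.15 (unadjusted p = 0.00317), or 0.37 without pair 1, still at the criteria. The cannabinoid receptor Cnr1 was at 6.89, 7.51 and 7.18 with CTGF and at 6.24, 6.89 and 6.64 in the controls. Here the groups overlapped, but the pairs differed by nearly the same amount, 0.65, 0.62 and 0.54, which gave the smallest p of any probe set with a symbol (2.28e-05, adjusted p = 0.317). Pappa, the protease that frees insulin-like growth factors from their binding proteins, was at 7.55, 6.47 and 6.57 with CTGF against 6.80, 6.22 and 6.04 in the controls. Pair 1 lay highest in both groups, and the difference was 0.51 ± 0.10.

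Lbp, the lipopolysaccharide-binding protein, stood at 8.90, 6.77 and 7.00 with CTGF and at 7.22, 6.60 and 6.60 in the controls. Most of its mean difference of 0.75 came from pair 1, without which it was 0.29, and the criteria were no longer met without number 2 (1.04) or without number 3 (0.93). Pnoc, the precursor of the opioid-like peptide nociceptin, was at 9.62, 7.17 and 6.98 with CTGF against 8.41, 7.13 and 6.58 in the controls, a difference of 0.55 that was 0.22 without pair 1. Gstm6, a glutathione transferase, differed by 0.62 and by 0.24 without pair 2, and was not at the criteria without pair 1 or pair 2. Further genes among the 15 leading ones upward were St6gal2, a sialyltransferase (0.46), and the glutamate receptor subunit Gria1 (0.44). The alcohol dehydrogenase Adh1c (0.42) and Smad6, an inhibitor of BMP signalling (0.40), were also among them. These 15 were drawn from probe sets with a symbol and a mean level of at least the median. Dimmer ones such as Mcpt1l1 (0.73) were left out even where they differed more. Adh1c lost the criteria without pair 1 (0.28) or pair 3 (0.36). St6gal2 and Gria1 met the criteria with any 1 pair left out, but not in the fit that ignores the pairs.

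**Figure D2:**
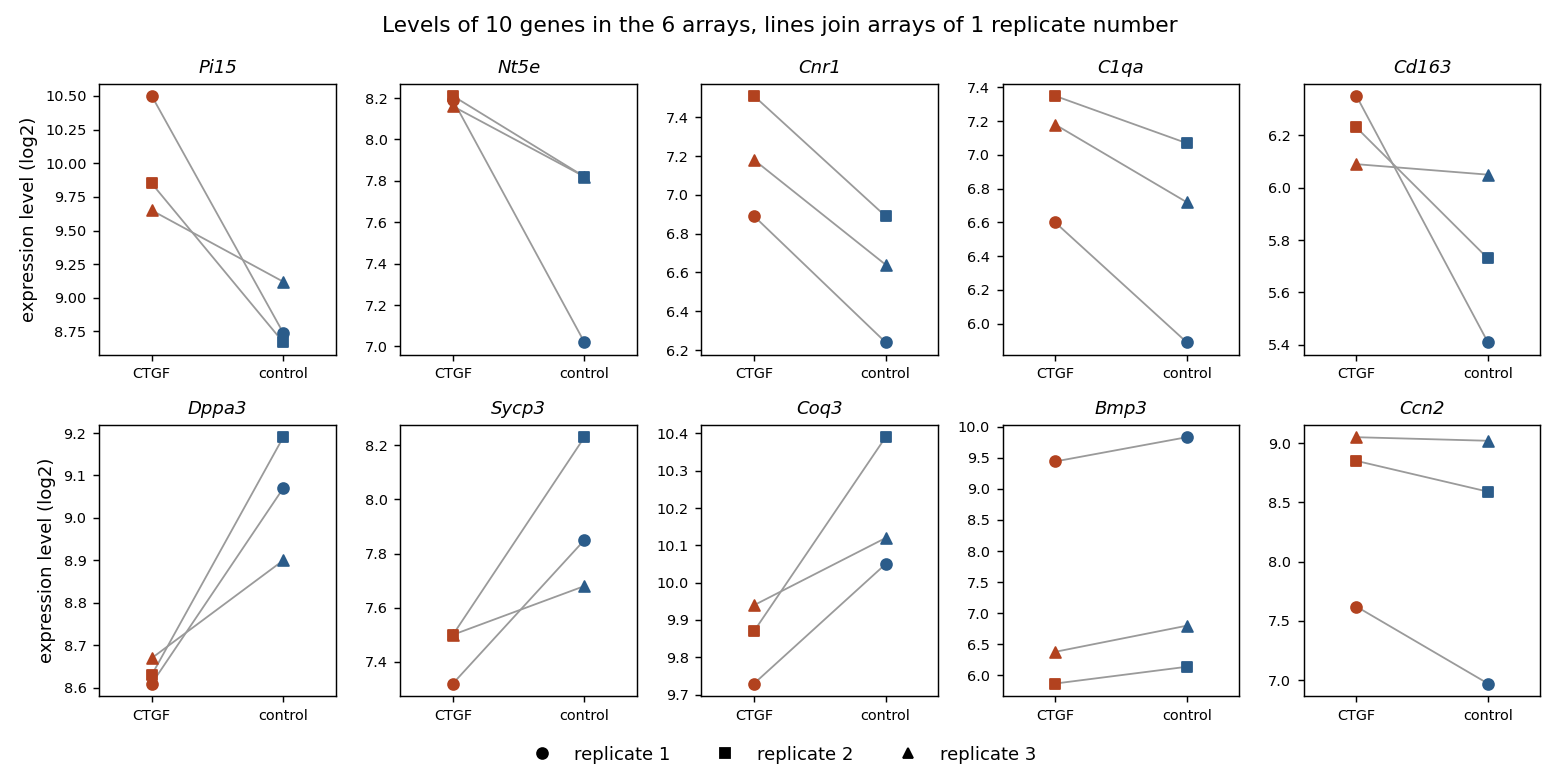
Log2 level of 10 genes in each of the 6 arrays, CTGF on the left of each panel and control on the right, with a line joining the arrays of 1 replicate number (circle 1, square 2, triangle 3). Pi15, Nt5e and Cd163 have all CTGF arrays above all controls, Dppa3, Sycp3 and Coq3 have all below, and in Bmp3 and Ccn2 the replicate numbers lie further apart than the treatments.

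Macrophage genes formed the list with the highest median. Of 8 markers measured, 4 met the criteria as higher and 0 as lower, and 6 were up in all 3 pairs. Their median difference was 0.32. Of all 14324 genes with a symbol, 152 (1.06%) were higher and 18.2% were up in all 3 pairs, with a median of 0.01. Cd163, the haemoglobin scavenger receptor of resident macrophages, was at 6.35, 6.23 and 6.09 with CTGF and at 5.41, 5.73 and 6.05 in the controls. No control reached the lowest CTGF array, although the third pair differed by only 0.04, and the difference of 0.49 was 0.27 without pair 1 and no longer met the criteria without pair 1 or pair 2. The C1q chain gene C1qa stood at 6.60, 7.35 and 7.18 with CTGF and at 5.89, 7.07 and 6.72 in the controls, and its neighbour C1qc at 8.18, 8.97 and 8.85 with CTGF and at 7.65, 8.74 and 8.40 in the controls. Both were higher in each pair, by 0.48 ± 0.09 and 0.40 ± 0.08 on average. The lysosomal glycoprotein gene Cd68 was at 8.06, 8.20 and 7.72 with CTGF and at 7.42, 7.87 and 7.53 in the controls (0.39 ± 0.09), and it lost the criteria without pair 2 (0.42). The other markers gave 0.25 for Mrc1, 0.23 for C1qb, 0.19 for Csf1r, the receptor that macrophages need, and 0.06 for Lyz2, none at the criteria. In the fit without pairs C1qa, C1qc and Cd68 were not at the criteria (unadjusted p = 0.195, 0.258 and 0.0556, limma). That leaves 1 of the 8, Cd163, and with the unpaired t-test on log2 values 0 were at them. The 8 log2 levels added up to 59.3, 62.8 and 61.5 with CTGF against 55.5, 61.5 and 59.1 in the controls, so each pair differed the same way while the groups overlapped. Whether the number of macrophages differed was not tested.

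In the wider list of complement and macrophage genes, 6 of 27 were higher and 0 lower, beside 1.06% and 0.565% of all genes with a symbol. The median was 0.14 (0.33, 0.02 and 0.12 in the 3 pairs). Without pairs in the fit 2 of the 27 met the criteria, Cd163 and Cd14. The list adds C7, a component of the membrane attack complex, at 10.26, 9.83 and 10.74 with CTGF against 8.97, 9.55 and 10.57 in the controls, and the lipopolysaccharide co-receptor Cd14, at 10.97, 10.79 and 10.72 against 10.58, 10.63 and 10.48. The Cd14 groups did not overlap (0.26 ± 0.07), although the criteria were lost without pair 1 (0.20), without pair 3 (0.27) or after median centring, whereas C7 failed the criteria with any 1 pair left out and stood at 0.22 without pair 1. Other genes of leukocytes and macrophages differed little, at 0.10 for Ptprc, -0.01 for Tyrobp, 0.01 for Aif1, -0.01 for Itgam and 0.01 for Itgb2. The chemokine Ccl2 was lower in each pair, by 0.30 on average, without meeting the criteria. Among mast cell markers the chymase Mcpt1l1 was at 6.46, 7.07 and 5.76 with CTGF against 5.38, 6.18 and 5.54 in the controls (0.73 ± 0.15). It was the 1 of 8 that met the criteria, beside 1.06% of all genes with a symbol higher. Mcpt1l1 no longer met them without pair 1 (0.56) or pair 2 (0.65). All 3 erythroid markers measured had negative differences, with 0 at the criteria, and the beta-globin Hbb-b1, which met them, was lower by 0.34 ± 0.07.

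**Figure D3:**
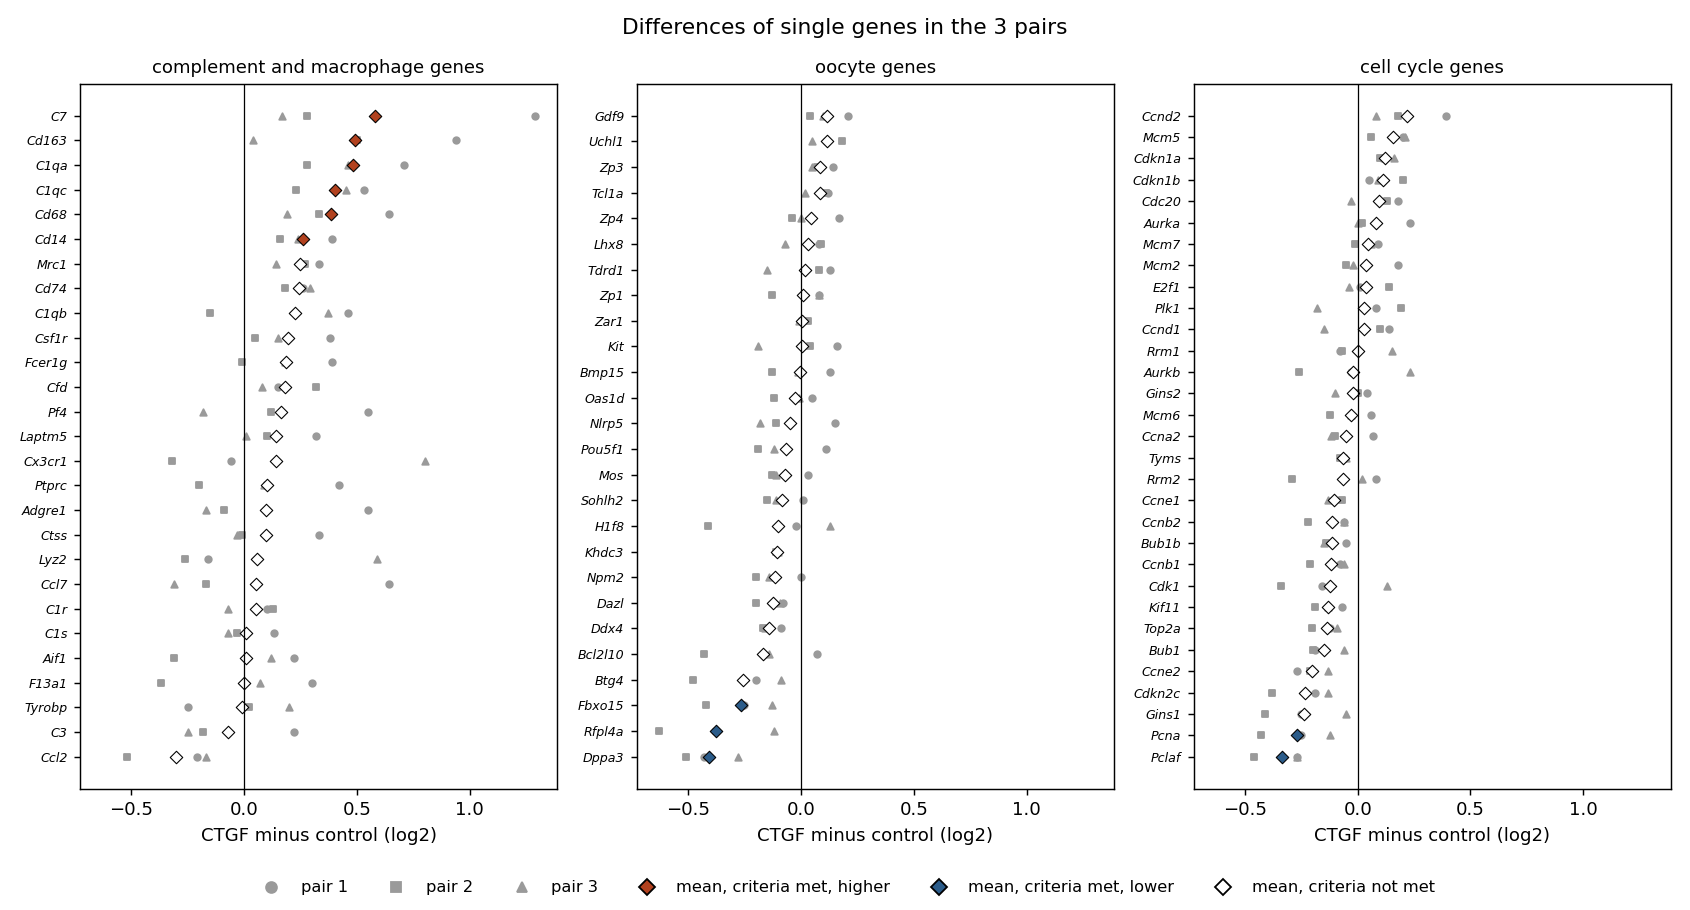
CTGF minus control on the log2 scale for the genes of 3 lists, with grey marks for the 3 pairs and a diamond for the fitted difference, filled where the study criteria were met. The top of the complement and macrophage panel holds 6 filled diamonds to the right, and the oocyte and cell cycle panels hold 3 and 2 to the left, with most other genes near 0.

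As C1qa and Cd68 were higher in every pair, the stretch before their start sites is shown, 250 bases each on the minus strand of GRCr8 (RefSeq, chr5:154419934-154420183 and chr10:54882442-54882691). Capitals mark GGAAGT on either strand, the core letters bound by ETS factors, to which the macrophage factor PU.1 belongs. C1qa holds 2 matches and Cd68 holds 1, and of 33469 promoter windows of this length 19.2% hold at least 1 and 2.8% at least 2.
C1qa: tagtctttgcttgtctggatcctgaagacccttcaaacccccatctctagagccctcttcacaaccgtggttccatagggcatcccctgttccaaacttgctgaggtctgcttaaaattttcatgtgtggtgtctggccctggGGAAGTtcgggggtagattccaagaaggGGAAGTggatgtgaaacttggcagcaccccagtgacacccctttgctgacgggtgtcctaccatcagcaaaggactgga
Cd68: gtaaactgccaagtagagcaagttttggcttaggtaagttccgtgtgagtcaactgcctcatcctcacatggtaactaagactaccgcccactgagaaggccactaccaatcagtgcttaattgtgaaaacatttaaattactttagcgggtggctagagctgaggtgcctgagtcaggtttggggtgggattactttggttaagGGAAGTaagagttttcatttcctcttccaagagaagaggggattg

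Of the metallothionein genes, whose small proteins bind zinc and copper, Mt2A met the criteria. Its 2 probe sets stood at 11.23, 10.58 and 10.66 and at 10.03, 9.32 and 9.32 with CTGF, against 10.76, 10.31 and 10.30 and 9.58, 9.14 and 8.96 in the controls. They differed by 0.37 ± 0.07 and 0.33 ± 0.08, in each pair in the same direction. Both met the criteria with any 1 pair left out, but neither did in the fit without pairs (unadjusted p = 0.127 and 0.222, limma). Mt1 was at 10.10, 10.08 and 10.07 with CTGF and at 9.90, 9.98 and 9.76 in the controls; its groups did not overlap, but at a ratio of 1.15 it was under the criteria. The remaining genes of the list did not follow, with 1 of 23 genes at the criteria, beside 1.06% of all genes with a symbol higher, and a median of 0.05. Both genes lie on chromosome 19, and the 250 bases before their start sites (chr19:10838709-10838958 for Mt2A and chr19:10832976-10833225 for Mt1, minus strand, GRCr8, RefSeq) are shown because they carry the letters of the metal response element. Capitals mark its core, TGCACNC or TGCGCNC on either strand. Mt2A holds 4 matches and Mt1 holds 6, counts reached by 0.266% and 0.0269% of the 33469 windows.
Mt2A: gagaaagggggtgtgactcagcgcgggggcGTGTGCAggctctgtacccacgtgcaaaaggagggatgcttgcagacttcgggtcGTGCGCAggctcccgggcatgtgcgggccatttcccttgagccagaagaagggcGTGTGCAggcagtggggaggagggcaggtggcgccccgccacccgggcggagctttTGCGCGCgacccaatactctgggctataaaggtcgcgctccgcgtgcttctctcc
Mt1: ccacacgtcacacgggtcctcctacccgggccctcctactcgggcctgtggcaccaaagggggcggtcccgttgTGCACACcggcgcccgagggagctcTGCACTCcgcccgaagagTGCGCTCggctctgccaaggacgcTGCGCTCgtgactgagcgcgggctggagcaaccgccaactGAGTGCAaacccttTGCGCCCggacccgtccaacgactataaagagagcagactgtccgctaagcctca

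Among oocyte genes the differences ran downward in a few members and were near 0 in most. Of 26 measured, 3 were lower and 0 higher at the criteria, beside 81 of 14324 genes (0.565%) lower. In all 3 pairs 7 were down and 4 up, beside 11.6% and 18.2% of all genes with a symbol. The median was -0.06. Dppa3, the maternal factor also called Stella, which protects methylation after fertilisation in the mouse, was measured by 5 probe sets, and all of them met the criteria in either fit. The first stood at 8.61, 8.63 and 8.67 with CTGF and at 9.07, 9.19 and 8.90 in the controls. The 5 differences lay between -0.42 and -0.39, and in each the groups did not overlap. Their levels run closely together and count as evidence on 1 gene; whether they read near-identical copies was not tested. Rfpl4a, an oocyte ubiquitin ligase gene, was at 7.12, 6.76 and 6.98 with CTGF against 7.50, 7.39 and 7.10 in the controls (-0.38 ± 0.10). Fbxo15, an F-box gene of pluripotent cells and the only 1 of 39 measured network hub candidates of the study to meet the criteria, was at 8.81, 8.82 and 8.85 against 9.06, 9.24 and 8.98 (-0.27 ± 0.08). Both lost the criteria without pair 1 (-0.38 and -0.27) or pair 2 (-0.25 and -0.19). The genes that make the zona pellucida and the oocyte growth factors did not follow. Zp3 differed by 0.09, Zp4 by 0.04, Zp1 by 0.01, Gdf9 by 0.12 and Bmp15 by less than 0.01, and none met the criteria.

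Sycp3, a lateral element protein of the synaptonemal complex, was at 7.32, 7.50 and 7.50 with CTGF and at 7.85, 8.23 and 7.68 in the controls. The groups did not overlap, and the difference was -0.48 ± 0.10, but the criteria were not met without pair 1 (-0.46) or without pair 2 (-0.36). Its partner Sycp2 was lower in every pair, by 0.23 on average, and Sycp1 differed by -0.19, both short of the criteria. Of 27 meiosis and germ line genes, 1 was lower and 1 higher at the criteria, beside 0.565% and 1.06% of all genes with a symbol. The higher one was the crossover factor Msh5, at 6.05, 6.99 and 6.39 with CTGF against 5.89, 6.41 and 6.09. Msh5 lost the criteria without pair 2 (0.23) or pair 3 (0.37). In all 3 pairs 5 of the 27 were down and 4 up, beside 11.6% and 18.2% of all genes with a symbol. The median was -0.07, with 0.03, -0.11 and -0.04 in the pairs.

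All 11 measured markers of pregranulosa and granulosa cells had a positive difference, between 0.01 for Fst and 0.29 for Amh. In all 3 pairs 4 of the 11 were up, beside 18.2% of all genes with a symbol, but 0 met the criteria. The list median of 0.12 was about the same in each pair (0.11, 0.09 and 0.09), beside 0.01 over all genes with a symbol. Wnt4, a ligand of granulosa cell development, was higher by 0.22, Inha, the inhibin alpha subunit, by 0.17, and Amhr2, the receptor of anti-Müllerian hormone, by 0.16. Kitlg, the granulosa ligand that starts oocyte growth, differed by 0.05 and its oocyte receptor Kit by less than 0.01. In the list of 43 genes of the primordial follicle transition 1 met the criteria as higher, the neurotrophin receptor Ntrk2, beside 1.06% of all genes with a symbol. In all pairs 12 of the 43 were up and 1 down, beside 18.2% and 11.6% of all genes with a symbol. Foxo3, which holds mouse primordial follicles at rest, was higher in each pair by 0.20 and Akt1 by 0.14, neither at the criteria.

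Genes of steroid action had 3 of 27 members higher, beside 1.06% of all genes with a symbol, and 0 of them in the fit without pairs. Star, which carries cholesterol into mitochondria, was at 9.30, 7.66 and 7.59 with CTGF and at 9.00, 7.30 and 7.31 in the controls. Pair 1 was far above the others in both groups, and the within-pair difference was 0.31 ± 0.07. The estrogen receptor Esr2 was at 8.75, 9.20 and 9.52 against 8.62, 8.83 and 9.16 (0.29 ± 0.08), and the progesterone receptor Pgr at 7.92, 8.34 and 8.54 against 7.64, 8.26 and 7.97 (0.31 ± 0.10). Star met the criteria whichever pair was left out, Esr2 lost them without pair 2 or pair 3 (0.25 each) and Pgr without pair 1 (0.32) or pair 3 (0.18). The enzymes that make steroids did not accompany them, with 0.03 for Cyp17a1, below 0.01 in size for Cyp11a1, and 0.13 for Hsd3b2. Lhcgr, the receptor of luteinizing hormone, differed by -0.33 without a common direction in the pairs.

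The gene of the added factor itself, Ccn2, was at 7.62, 8.85 and 9.05 with CTGF and at 6.97, 8.59 and 9.02 in the controls. It was higher in each pair (0.31 ± 0.11, unadjusted p = 0.0243), with a ratio of linear means of 1.15, below the criteria. The pairs differed by 0.65, 0.26 and 0.03, and the difference was 0.15 without pair 1 and 0.45 without pair 3, where it met the criteria. Of its measured receptors and partners, 3 of 19 met the criteria as higher, beside 1.06% of all genes with a symbol. These were the neurotrophin receptors Ntrk3 (0.33) and Ntrk2 (0.27) and the angiogenic factor Vegfa (0.28). In the fit without pairs 1 of the 19 met the criteria, Ntrk2, and with the unpaired t-test on log2 values 0 did. Ntrk3 met them with any 1 pair left out, while Ntrk2 and Vegfa lost them without pair 1 (0.14 and 0.21) or pair 3 (0.31 and 0.25), and Ntrk2 also after median centring. Lrp1, the receptor that takes CTGF up, stood at 10.46, 10.37 and 10.41 with CTGF against 10.09, 10.22 and 10.17 in the controls. Its groups did not overlap, and its difference of 0.25 ± 0.07 gave a ratio of 1.19, just under the criteria. Its relative Lrp1b had 3 of 16 probe sets at the criteria, and the one that differed most was higher by 0.72, 0.70 and 0.36 in the 3 pairs (0.59 ± 0.09). The integrin genes were flat, with differences of -0.02 for Itgb1, -0.03 for Itga6, 0.02 for Itga5 and 0.08 for Itgb5. The ligand-binding proteoglycan decorin (Dcn) differed by 0.05 and fibronectin (Fn1) by -0.06.

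Of 41 matrix genes measured, 13 were up and 0 down in all 3 pairs, beside 18.2% and 11.6% of all genes with a symbol. Only 2 met the criteria, as higher, beside 1.06% of all genes with a symbol, and the median was 0.09. Fbln1, a basement membrane glycoprotein, was higher by 0.60, 0.24 and 0.08 in the 3 pairs, a mean difference of 0.31 that was 0.16 without pair 1. The gelatinase Mmp9 differed by 0.40 with pairs of mixed sign, and by 0.16 without pair 1. The collagen genes Col1a2, Col3a1 and Col1a1 differed by 0.25, 0.18 and 0.14 and elastin (Eln) by 0.24, none at the criteria. In the YAP and TEAD target list 1 of 19 met the criteria as higher (Nt5e), beside 1.06% of all genes with a symbol. Ccn1 and Ankrd1 differed by 0.12 and 0.03.

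Genes of TGF-beta and BMP signalling had 2 of 49 higher and 1 lower, beside 1.06% and 0.565% of all genes with a symbol. In the fit without pairs 0 of them met the criteria, as for the matrix genes. The inhibitory Smad6 was at 8.72, 8.97 and 8.48 with CTGF against 8.39, 8.92 and 7.65 in the controls, and the BMP-responsive Smad9 at 8.37, 7.84 and 7.42 against 8.12, 7.60 and 6.99 (0.31 ± 0.07). Smad6 lost the criteria without pair 1 (0.44) or pair 3 (0.19), and Smad9 without pair 3 (0.24). The BMP targets Id1, Id3 and Id4 were higher in each pair by 0.09, 0.14 and 0.08, short of the criteria. Bmp3, a BMP antagonist, was the member lower at the criteria (-0.36 ± 0.07). In the Notch list 1 of 23 met the criteria, the endothelial ligand Dll4, at 8.51, 8.23 and 8.23 against 8.16, 8.03 and 7.90. In the Wnt list 1 of 37 did, the secreted inhibitor Wif1 (0.29). Both were higher, beside 1.06% of all genes with a symbol. Wif1 was not at the criteria with any 1 pair left out, and it differed by 0.14 without pair 2.

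Pclaf, the PCNA clamp partner, was at 6.99, 7.80 and 7.79 with CTGF and at 7.26, 8.26 and 8.06 in the controls (-0.33 ± 0.07), and Pcna itself at 10.58, 10.77 and 10.79 against 10.83, 11.20 and 10.91 (-0.27 ± 0.08). Pclaf met the criteria whichever pair was left out, Pcna not without pair 1 (-0.28) or pair 2 (-0.19). These were the 2 members of 31 cell cycle genes at the criteria, beside 0.565% of all genes lower, and neither was at them in the fit without pairs. In all pairs 13 of the 31 were down and 4 up, beside 11.6% and 18.2% of all genes. Cyclins did not share 1 direction, with -0.11 for Ccnb2, -0.12 for Ccnb1 and 0.22 for Ccnd2. Coq3, an enzyme of coenzyme Q synthesis, was at 9.73, 9.87 and 9.94 with CTGF against 10.05, 10.39 and 10.12 in the controls (-0.34 ± 0.08). The groups did not overlap, as for Cox7b, a cytochrome c oxidase subunit (-0.45 ± 0.09), the ribosome assembly factor Nip7 (-0.35 ± 0.08) and Tma7 (-0.35 ± 0.07). Tma7 met the criteria with any 1 pair left out, whereas Coq3 lost them without pair 1 (-0.35) or pair 2 (-0.25), Cox7b without pair 1 (-0.39) and Nip7 without pair 2 (-0.25). Nip7 and Uqcc2, an assembly factor of complex III, each had a second probe set that differed less (-0.19 and -0.22) and did not meet the criteria. The first probe set of Uqcc2 differed by -0.37, and by -0.19 without pair 2, where it was not at the criteria.

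The lowest difference among bright probe sets with a symbol was that of Cxcl10, an interferon-induced chemokine, at 8.53, 7.02 and 6.55 with CTGF and at 8.85, 7.20 and 7.67 in the controls. Pair 3 carried most of its difference of -0.54, and the criteria were not met without pair 1 (-0.65). Without pair 3 the difference was -0.25. Isg15, another interferon-induced gene, differed by -0.28 with pairs of mixed sign (-0.45 without pair 2, -0.12 without pair 3). Of 31 interferon response genes 1 was lower and 0 higher, beside 0.565% and 1.06% of all genes with a symbol. Angpt1, the ligand of the endothelial receptor Tie2, was at 5.95, 6.99 and 8.38 with CTGF against 6.53, 7.96 and 8.41 in the controls, a difference of -0.53 that was -0.30 without pair 2.

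**Figure D4:**
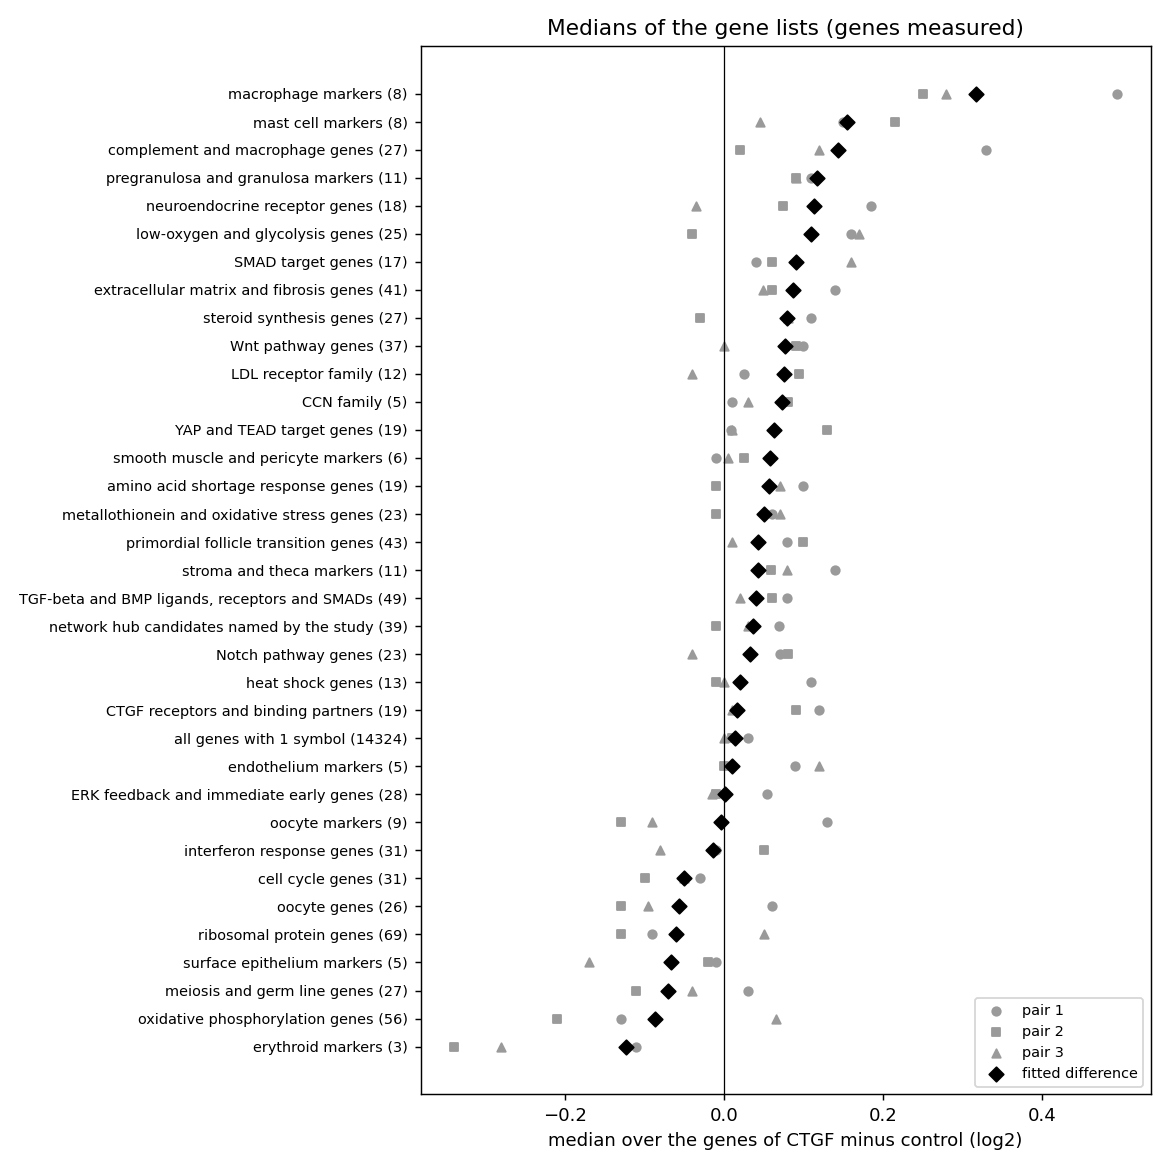
Median over the measured genes of each list of CTGF minus control on the log2 scale, with grey marks for the 3 pairs and a black diamond for the median of the fitted differences; the number of genes is in brackets. Macrophage markers stand highest (0.32) in every pair, pregranulosa markers have almost the same median in each pair, and the oxidative phosphorylation and ribosomal protein lists change sign in pair 3.

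The genes that met the criteria with CTGF were then looked up in the other 38 arrays, where 8 growth factors (3 samples each) were compared with 14 controls that share no array with the CTGF set. Those 8 comparisons share their controls with each other, and the 2 sets were preprocessed apart, so only differences within a set were used. The labels give 3 GDNF samples, whereas the paper states 2 for that factor. The 266 higher probe sets had a median difference between 0.08 and 0.18 with AMH, BMP4, FGF2, FGF7, KITLG, LIF and PDGFab, and of -0.03 with GDNF. With BMP4, 78.2% of the 266 were positive beside 50.7% of all probe sets, with GDNF 43.6% beside 59%. The 280 lower probe sets had their lowest medians with BMP4 (-0.21) and FGF7 (-0.20), where 81.4% and 82.9% were negative beside 49.3% and 54.7% of all. Over all probe sets the differences of CTGF had a correlation of 0.33 with those of BMP4 and FGF7, 0.30 with KITLG and PDGFab, 0.24 with LIF, 0.23 with FGF2, 0.17 with AMH and -0.09 with GDNF, as a description over probe sets, which are not independent. With 1 CTGF pair or the dimmer probe sets left out, these ranged from 0.28 to 0.38 for BMP4, from 0.26 to 0.42 for FGF7 and from 0.12 to 0.35 for the other 5 positive ones. That with GDNF ranged from -0.14 to 0.03, with a change of sign. Among the 3 CTGF pairs themselves, the differences of single pairs correlated weakly over all probe sets. The r was 0.263 for pairs 1 and 2, 0.141 for pairs 1 and 3 and 0.0681 for pairs 2 and 3.

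For single genes the comparisons with the 8 other factors give signs and sizes, and few passed a test. The lowest p adjusted over all probe sets with any of the 8 factors was 0.576 for C1qc (limma). It was 0.152 among the 5 probe sets of Dppa3 and 0.337 among the 2 of Mt2A (limma). C1qc was positive with 7 of the 8 factors, between 0.34 and 0.58, and -0.25 with GDNF. Dppa3 (first probe set) was negative with the same 7, from -0.09 with AMH to -0.65 with KITLG, and positive with GDNF (0.32). Its other probe sets lay between -0.75 and -0.67 with KITLG. Mt2A was likewise positive with those 7 factors, up to 0.84 with LIF for its first probe set and 1.12 for its second. C7, at 0.58 with CTGF, was at 1.62 with LIF (adjusted p = 0.0142, limma) and 1.10 with PDGFab (adjusted p = 0.143). Pnoc, at 0.55 with CTGF, was at 2.35 with FGF2 (adjusted p = 0.000421, limma). Lbp, at 0.75 with CTGF, was at 1.23 with LIF (adjusted p = 0.0023, limma). Pi15 was at -1.50 with FGF2 (adjusted p = 0.0673) and between -0.40 and 0.39 with the other factors, and Cnr1 lay between -0.18 and 0.18 with all 8. Of the 15 leading genes upward, 15 were positive with BMP4 and 5 with GDNF, and of the 15 downward, 13 were negative with FGF7 and 8 with FGF2.

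**Figure D5:**
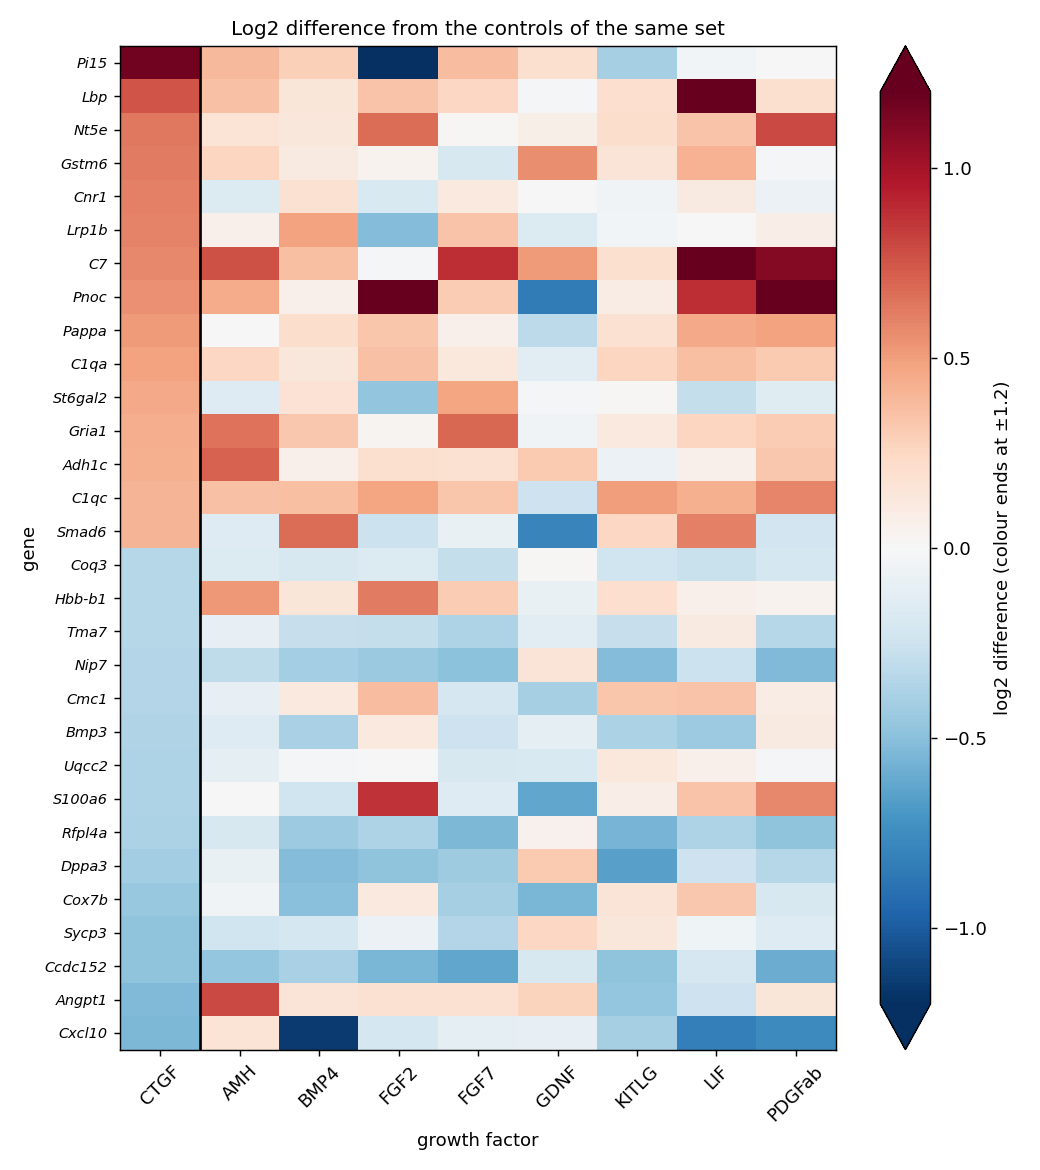
Log2 difference from the controls of the same set for the 15 leading genes upward and the 15 downward with CTGF (rows, ordered by the CTGF difference), for CTGF in the first column and 8 growth factors of the other set beside it; red is higher and blue lower, and the colour ends at a difference of 1.2. C1qc and Dppa3 keep their sign in every column but that of GDNF, while Pi15 is at -1.50 with FGF2 and Cnr1 is pale outside CTGF.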

How the data were processed

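Whole-ovary RNA of 6 samples (3 CTGF, 3 control) was hybridised to Affymetrix Rat Gene arrays. The authors ran GC-adjusted RMA in Partek on the scans, and the deposited log2 values were used as given; the CTGF set was preprocessed apart from the other 38 arrays, and depth is limited by the number of arrays. The annotation gave 1 symbol to 15097 of 27342 probe sets, several to 323 and none to 11922.

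CTGF was compared with control with limma (version 3.58.1, R 4.3.3; lmFit, then eBayes) and the replicate number as a block, and p-values were adjusted over all probe sets by Benjamini-Hochberg. Samples of the same number deviated together from their group means (r = 0.842, 0.623 and 0.647). Samples of unlike numbers had r = 0.328 (CTGF 2, control 3) and 0.273 (CTGF 3, control 2), and -0.653 to -0.569 where number 1 took part. Number 1 was thus set apart more clearly than numbers 2 and 3 from each other. The study names 3 replicate experiments, and the labels do not say which arrays shared one. The p-values of the paired fit measure the spread of the differences within pairs, not the spread between all pools. The fit was tested on simulated data. The members and gene lists were chosen with earlier results of these data known. Where a listed gene has several probe sets, the brightest was used. Named genes were the 15 largest differences in each direction with 1 symbol, a mean level of at least the median, the study criteria met (its thresholds on limma's paired p, in place of its t-test) and 1 sign in all pairs, list members at the criteria, and Ccn2 with its receptors. The other 38 arrays were fitted together against their 14 controls. Alternatives left out the block or 1 pair, used t-tests, weights, a variance trend, other normalization or a filter on dim probe sets. Promoters are from RefSeq (GRCr8).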

Additional observations from a re-analysis of the deposited data

How the results depend on the processing

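At an adjusted p of 0.05 the count was 0 under every setting of limma and under the unpaired t-tests. It was 5 in the paired t-test by replicate number. The 3 pair differences of each of those 5 lay within 8e-04 of each other, on values given to hundredths, none of the 5 met the study criteria, and their differences were between 0.02 and 0.18 in size. At the study criteria 266 probe sets were higher with CTGF in the paired fit, and 87 with no replicate block. The number was 44 and 48 in unpaired t-tests on log2 and linear values, and 80 in the paired t-test. With 1 replicate number left out it was 276 to 386. The number lower was 280 in the paired fit and 121 with no replicate block. It was 61 and 54 in the unpaired t-tests and 71 in the paired t-test. With 1 number left out it was 152 to 573. The share of higher probe sets was 48.7%, against 38.4% with quantile normalization repeated (209 higher, 335 lower) and 39.3% with median centring. Of 63 probe sets of named genes at the criteria, 44 lost them with no replicate block. Under each unpaired t-test 51 lost them, and in the paired t-test 45. Without number 1, 2 and 3 the losses were 32, 25 and 18, and with quantile normalization and median centring 6 and 4. Atf3, Ntrk2 and Ndrg1 were lost under both normalizations, and no named value changed sign while called. Ccn2 met the criteria without number 3 and Lrp1 without number 2. The cause of these moves was not tested. With 3 pairs, differences under the criteria are not shown to be absent.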

Other observations

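The 56 genes of oxidative phosphorylation had a median difference of -0.09, with -0.13, -0.21 and 0.07 in pairs 1, 2 and 3. At the study criteria 1 member was higher (Ndufa10, 0.35) and 1 lower (Cox7b), beside 1.06% and 0.565% of all genes with a symbol. The 69 ribosomal protein genes had a median of -0.06, with -0.09, -0.13 and 0.05 in the pairs, and 0 members at the criteria. Both medians turn sign in pair 3. Genes of low oxygen and glycolysis had 3 of 25 members higher, beside 1.06% of all genes with a symbol. The fit without pairs listed 0 of the 25. The 3 were the hexokinase Hk2 (0.35), Vegfa (0.28) and Ndrg1 (0.24), and the list medians in the pairs were 0.16, -0.04 and 0.17. Hk2 lost the criteria without pair 1 (0.26) or pair 3 (0.32), Vegfa without pair 1 (0.21) or pair 3 (0.25), and Ndrg1 with any 1 pair left out, with 0.10 without pair 1.

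Probe sets without a gene symbol made up 68.2% of those lower with CTGF (191 of 280) and 40.2% of those higher (107 of 266), beside 43.6% of all probe sets. They are in none of the gene lists.

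The immediate early gene Nr4a1, which encodes an orphan nuclear receptor, stood 3.19 higher in the arrays of number 1 than in those of the other numbers, in both groups. With CTGF it differed by -0.35, -0.16 and -0.08 in the 3 pairs, a mean of -0.20 that met the study criteria, though not without pair 1 (-0.12) or pair 2 (-0.21).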
